A study of Arabidopsis thaliana with 12 samples.

Results

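The genes described here are 10 loci of the core cell cycle machinery of Arabidopsis thaliana: the cyclin-dependent kinases (CDKs) CDKA;1, CDKB1;1, CDKB1;2, CDKB2;1 and CDKB2;2, and the A-type cyclins CYCA1;1, CYCA2;1, CYCA2;2, CYCA2;3 and CYCA2;4. They were chosen by locus identifier, and 8 of the 10 had a row among the 16947 loci of the deposited table. CDKB1;1 (AT3G54180) and CDKB1;2 (AT2G38620), the B1-type kinases, were not analysed here. RNA of 5-day-old Col-0 seedlings was hybridised to 12 Affymetrix arrays in 4 groups of 3 replicates, which the labels call biological: gmi1-1 irradiated, gmi1-1 untreated, wild type (WT) irradiated and WT untreated. The gmi1-1 line has GMI1 (AT5G24280), whose induction depends on the damage kinase ATM, disrupted by a T-DNA, and it is 1 allele of 1 line. Irradiated seedlings of both genotypes received 100 Gy of gamma rays at 27 to 34 Gy per min and were harvested 1.5 h later. The untreated seedlings had the same ecotype, age and growth conditions. All had 2 days of cold at 4 °C and growth at 21 °C. The series asks whether GMI1 helps to regulate the transcriptional response to gamma rays. All levels below are log2 expression values as the authors deposited them, so a difference of 1 is a factor of 2, and levels are not compared between genes, whose probes differ.

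A CDK is inactive alone and phosphorylates its substrates once a cyclin binds it, so the timing of cyclin synthesis sets when in the cell cycle the kinase works. Arabidopsis has 1 kinase with the conserved PSTAIRE helix, CDKA;1 (the A-type kinase), which acts at the entry into both S phase and mitosis. Arabidopsis also has a plant-specific B class whose transcripts appear around G2 and mitosis. A-type cyclins act from S phase to mitosis, and those of the A2 group pair with B1-type kinases to restrain endoreduplication, the rounds of DNA replication without division. In seedlings these genes are known mainly from dividing cells of the root and shoot meristems and of the stomatal lineage.

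GMI1 itself was low on all 6 gmi1-1 arrays, at 1.44, 1.60 and 1.29 irradiated and 1.66, 1.31 and 1.24 untreated, whereas WT had 9.97, 10.92 and 10.46 irradiated and 2.53, 1.87 and 2.34 untreated. BRCA1 (AT4G21070), a repair gene that follows the treatment, was high in 1 library labelled untreated: gmi1-1 had 10.56, 11.48 and 10.99 irradiated and 10.54, 2.70 and 2.90 untreated, while WT had 11.38, 12.08 and 11.54 irradiated and 2.78, 2.95 and 2.99 untreated. The libraries labelled gmi1-1 irradiated and untreated replicate 1 were each other's nearest array (r = 0.990), with 120 loci more than 1 log2 unit apart, against 1563 for the replicates numbered 2 and 2770 for those numbered 3. The tests of gmi1-1 below are therefore given with and without these 2 doubted libraries, so that 2 arrays per gmi1-1 group remain. The gmi1-1 irradiated replicate 3 array had the narrowest spread of values (interquartile range 4.70, against 5.28 to 5.83 elsewhere), and its GAPDH control gave a 5′ minus middle signal of -1.30, against -0.47 to -0.17 on the other 11 arrays. The seedling label was set against marker genes: all 6 root markers were in the table, the seed storage gene SESA1 lay between 1.29 and 2.78, and 4 shoot markers were not analysed here. The mean level of the root markers was 5.45 to 6.06 in gmi1-1 irradiated and 6.04 to 6.43 in gmi1-1 untreated seedlings, and 5.72 to 6.12 in WT irradiated and 6.21 to 6.28 in WT untreated seedlings. It was thus lower on every irradiated than on every untreated WT array, and its part in the results below was not tested. In whole seedlings, fewer cells of a type and less RNA per cell cannot be told apart.

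In WT seedlings, the transcripts of both B2-type kinases and of CYCA1;1 fell after irradiation to between 21.4% and 32.5% of the untreated level. The transcript of the A-type kinase was at 92.0% of it and did not pass the test. CYCA1;1 is called the A1-type cyclin here, although the A1 group also holds CYCA1;2, which is given further below. Of the 8 genes in the table, 6 could be tested, and 3 of these fell and none rose at an adjusted p under 0.05 (limma, Benjamini-Hochberg over 9889 loci). Over all loci tested, 1.33% fell. All 8 genes had a lower mean after irradiation, and the median of their changes, the 2 untested genes included, was -0.77, beside -0.11 over the 9889 loci tested. Every irradiated array lay below every untreated one for the 3 genes that fell, for 2 A2-type cyclins that entered the test through untreated arrays alone and for 1 untested A2-type cyclin. The same held on 17.3% of the loci tested, and nothing is read from the count, since the filter let those 2 cyclins in on their untreated side.

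**Figure D1:**
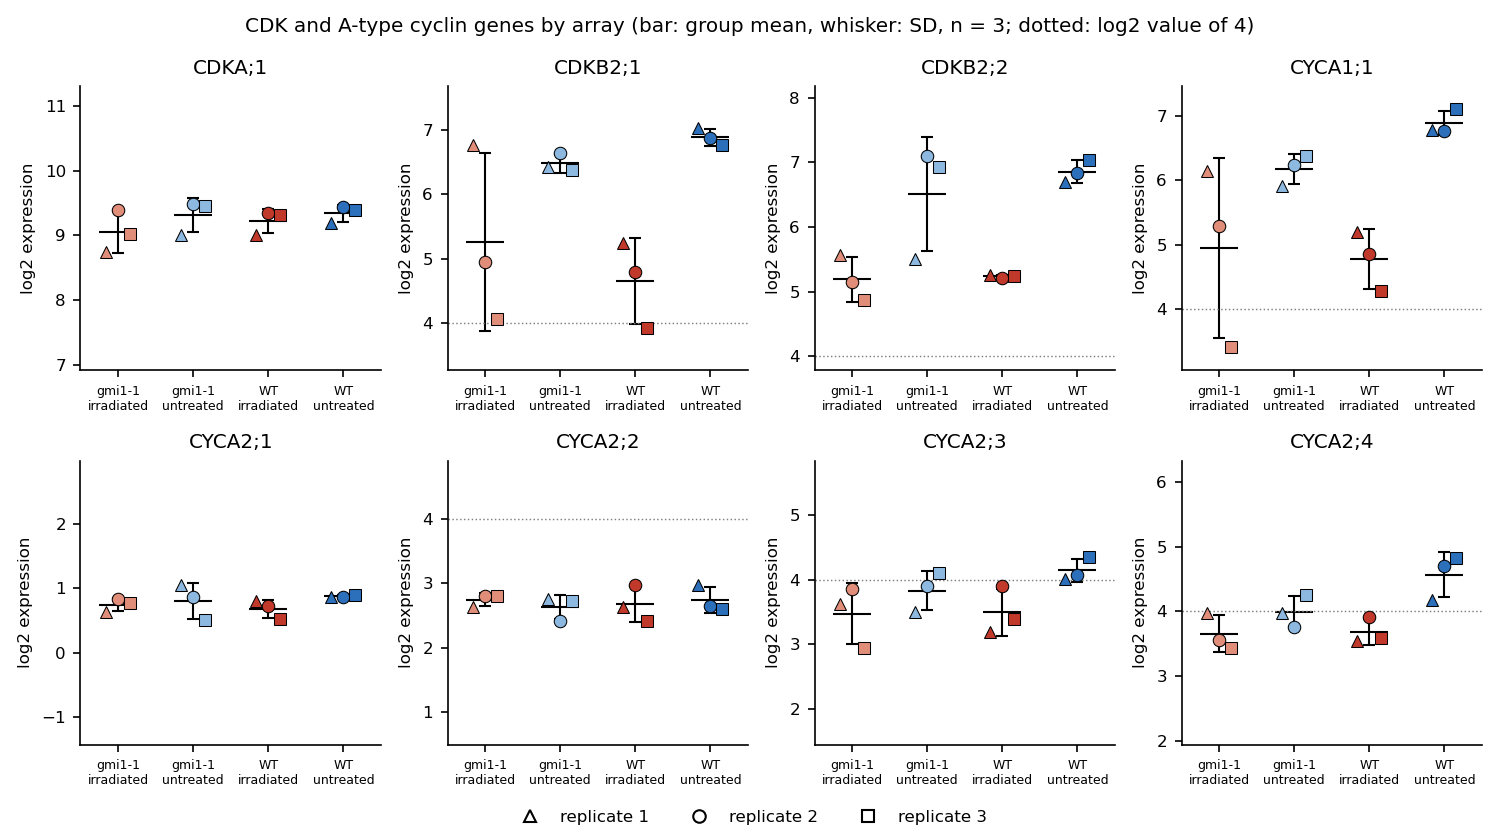
Log2 expression (vertical axis) of the 8 genes in the table, 1 panel per gene, on each of the 12 arrays, with the group mean as a bar, its SD as whiskers (n = 3) and the symbol shape for the replicate number. The dotted line is the filter at a log2 value of 4. The irradiated WT arrays of the B2-type kinases and the A1-type cyclin lie between 3.93 and 5.26, below all untreated WT arrays, whereas those of the A-type kinase overlap.

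CDKA;1 (AT3G48750), the kinase that drives the cycle in all dividing cells, had levels of 9.01, 9.35 and 9.31 in irradiated WT seedlings, against 9.19, 9.44 and 9.40 in untreated WT seedlings. The groups overlapped, with replicate 1 lowest in both. The means were 9.22 ± 0.19 irradiated and 9.34 ± 0.13 untreated (SD, n = 3 each). The difference was -0.12 (95% interval -0.61 to 0.37, adjusted p = 0.808 by limma), so a fall by more than 0.61 lay outside the interval.

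CDKB2;1 (AT1G76540), a kinase expressed from G2 to mitosis and needed for the organisation of the shoot meristem, had 5.24, 4.80 and 3.93 in irradiated WT seedlings, against 7.02, 6.87 and 6.76 in untreated WT seedlings. Every irradiated array lay at least 1 log2 unit below every untreated one. The irradiated arrays were spread more widely, with means of 4.66 ± 0.67 irradiated and 6.88 ± 0.13 untreated (SD, n = 3 each). The gene fell by 2.23 (SE 0.54, 95% interval -3.41 to -1.04, adjusted p = 0.0392 by limma). CDKB2;2 (AT1G20930), its closest relative, had 5.26, 5.21 and 5.24 in irradiated WT seedlings, against 6.70, 6.84 and 7.04 in untreated WT seedlings. Its irradiated arrays were nearly equal and lay below all untreated arrays. It fell by 1.62 (SE 0.36, 95% interval -2.41 to -0.84, adjusted p = 0.0255 by limma). The 2 kinases are close paralogs, and with probe sequences not given in the sources used here, how far each probe set reads the other transcript was not tested.

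CYCA1;1 (AT1G44110), the A1-type cyclin of mitotically dividing cells, had 5.20, 4.86 and 4.28 in irradiated WT seedlings, against 6.78, 6.77 and 7.11 in untreated WT seedlings. As for the first of the kinases, irradiated replicate 3 was lowest and all 3 irradiated arrays were below the untreated ones. The gene fell by 2.11 (SE 0.53, 95% interval -3.27 to -0.95, adjusted p = 0.0451 by limma), to 23.2% of the untreated level.

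These 3 calls changed when single arrays were left out. With any 1 WT array left out, CDKB2;2 differed by -1.70 to -1.53 and missed the threshold each time, at adjusted p = 0.0606 without irradiated replicate 1, 0.0988 without irradiated replicate 2, 0.0714 without irradiated replicate 3, 0.0541 without untreated replicate 1, 0.0857 without untreated replicate 2 and 0.108 without untreated replicate 3. CDKB2;1 kept its call without WT irradiated replicate 1 and missed it without any other WT array (adjusted p from 0.0935 to 0.12), and without gmi1-1 irradiated replicate 2 (0.0562), gmi1-1 untreated replicate 2 (0.0559) or gmi1-1 untreated replicate 3 (0.0566), which enter the shared estimate of the spread. The A1-type cyclin missed it without any 1 of the 6 WT arrays (adjusted p from 0.0642 to 0.166) and without the same 3 gmi1-1 arrays (0.0616, 0.065 and 0.0626). Without the 2 libraries labelled gmi1-1 replicate 1 the spread estimate was smaller, and the adjusted p of these WT changes was 0.00222 for CDKB2;1, 0.000377 for CDKB2;2 and 0.0113 for the A1-type cyclin, with 3.21% of all loci falling. In that fit, both kinases kept their WT calls when any 1 further array was left out, with adjusted p up to 0.0108 and 0.00393 in that order. The cyclin kept its call in 9 of 10 such fits and missed it without WT untreated replicate 3 (0.0507).

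The A2-type cyclins were lower on this array than the filter on low values asks for, in part or throughout, and none passed the test in WT. CYCA2;4 (AT1G80370) had 3.54, 3.92 and 3.59 in irradiated WT seedlings, against 4.18, 4.70 and 4.83 in untreated WT seedlings. The groups did not overlap, and the difference was -0.89 (SE 0.24, 95% interval -1.41 to -0.36, adjusted p = 0.0626 by limma). The adjusted p was 0.0523 without the libraries labelled gmi1-1 replicate 1. It was under the threshold with quantile normalization (0.0343), with median centring (0.0233), with array weights (0.00861), with WT untreated replicate 1 left out (0.0469), with the library labelled gmi1-1 irradiated replicate 1 left out (0.0461) and in a replicate block fit without both doubted libraries (0.0363).

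CYCA2;3 (AT1G15570), the cyclin known to pair with a B1-type kinase in holding back endoreduplication, had 3.19, 3.90 and 3.39 in irradiated WT seedlings, against 4.02, 4.07 and 4.35 in untreated WT seedlings. The groups did not overlap, but the gap between irradiated replicate 2 and untreated replicate 1 was small, and the difference was -0.65 (95% interval -1.27 to -0.04, limma adjusted p = 0.241). It passed with array weights alone of the settings tried (adjusted p = 0.0384). Both genes entered the test through untreated arrays alone, since they reached 4 on all 3 untreated WT arrays and 1 untreated gmi1-1 array each and on no irradiated array. Had they been lower in untreated seedlings they would not have been tested, and the direction of their difference is given here as a description. CYCA2;1 (AT5G25380), also of the A2 group, lay between 0.50 and 1.05 on all 12 arrays, and CYCA2;2 (AT5G11300) between 2.42 and 2.98. Neither reached the filter on any array, and both are in the range where GCRMA compresses differences. The WT difference of the first was -0.20, with groups that did not overlap, and that of the second -0.07, with groups that did.

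In gmi1-1 seedlings, the call depended on the 2 doubted libraries, and none of the 6 genes was called over all arrays. Without the libraries labelled replicate 1, both B2-type kinases and the A1-type cyclin, the same 3 genes as in WT, fell. They were at 24.9% to 25.8% of the untreated level. With all arrays, 0% of the 9889 loci were called in gmi1-1 (limma), and 3 of the 6 genes had an unadjusted p under 0.05, as had 13.2% of all loci. Without these libraries 5.13% of all loci fell and 7.58% were called in either direction. The median change of the 8 genes was -0.35 with all arrays, beside -0.23 over the 9889 loci tested, and -0.56 without these libraries, beside -0.34 over those loci. No gene had non-overlapping groups with all arrays, where 10.6% of loci did so on the lower side. Without the 2 libraries, with 2 arrays against 2, 6 of 8 were lower on both irradiated arrays, beside 46.8% of loci. The untested CYCA2;2 was higher, with 2.81 and 2.80 irradiated against 2.42 and 2.72 untreated, as 10% of loci were.

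CDKB2;2 had 5.56, 5.15 and 4.87 in irradiated gmi1-1 seedlings, against 5.50, 7.10 and 6.93 in untreated gmi1-1 seedlings. The library labelled untreated replicate 1 sat with the irradiated arrays. The change was -1.32 with all arrays (95% interval -2.10 to -0.53, adjusted p = 0.234). With the 2 libraries left out, it was lower on both irradiated arrays and fell by 2.00 (SE 0.23, adjusted p = 0.000529), and it kept its call when any 1 of the other 10 arrays was left out as well (adjusted p up to 0.0137). Leaving out only the library labelled untreated replicate 1 gave -1.82 (adjusted p = 0.00192).

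CDKB2;1 had 6.76, 4.95 and 4.06 in irradiated gmi1-1 seedlings, against 6.42, 6.64 and 6.37 in untreated gmi1-1 seedlings. Here the library labelled irradiated replicate 1 was the highest of all 6. The change was -1.22 with all arrays (95% interval -2.41 to -0.03, adjusted p = 0.367), and the gene fell by 2.00 without the 2 libraries (SE 0.42, adjusted p = 0.0172). Leaving out only the library labelled irradiated replicate 1 gave -1.97 (adjusted p = 0.0275). With gmi1-1 irradiated replicate 3 left out as well as the 2 libraries, which leaves 1 irradiated gmi1-1 array whose spread is taken from the other groups, the change was -1.56 (adjusted p = 0.136).

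The A1-type cyclin had 6.14, 5.29 and 3.41 in irradiated gmi1-1 seedlings, against 5.91, 6.24 and 6.37 in untreated gmi1-1 seedlings. The irradiated arrays were spread widely, with the library labelled replicate 1 inside the untreated range and replicate 3 far below it. The change was -1.23 with all arrays (95% interval -2.39 to -0.07, adjusted p = 0.361), and the gene fell by 1.96 without the 2 libraries (SE 0.51, adjusted p = 0.0456). Without irradiated replicate 3 as well, the array with the low GAPDH 5′ signal, the change was -1.02 (adjusted p = 0.212). Of the 10 fits that left out 1 further array, 3 kept the call of the cyclin, and 7 kept that of CDKB2;1.

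The A-type kinase had 8.74, 9.39 and 9.02 in irradiated gmi1-1 seedlings, against 9.01, 9.49 and 9.45 in untreated gmi1-1 seedlings, and the groups overlapped. Its difference was -0.27 with all arrays (adjusted p = 0.593), with an adjusted p of 0.518 without the 2 libraries. CYCA2;3 had 3.63, 3.85 and 2.94 irradiated, against 3.50, 3.90 and 4.10 untreated, and CYCA2;4 had 3.98, 3.55 and 3.44 irradiated, against 3.98, 3.76 and 4.25 untreated. Neither A2-type cyclin passed, with adjusted p = 0.568 and 0.539 with all arrays and 0.305 and 0.315 without the 2 libraries.

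**Figure D2:**
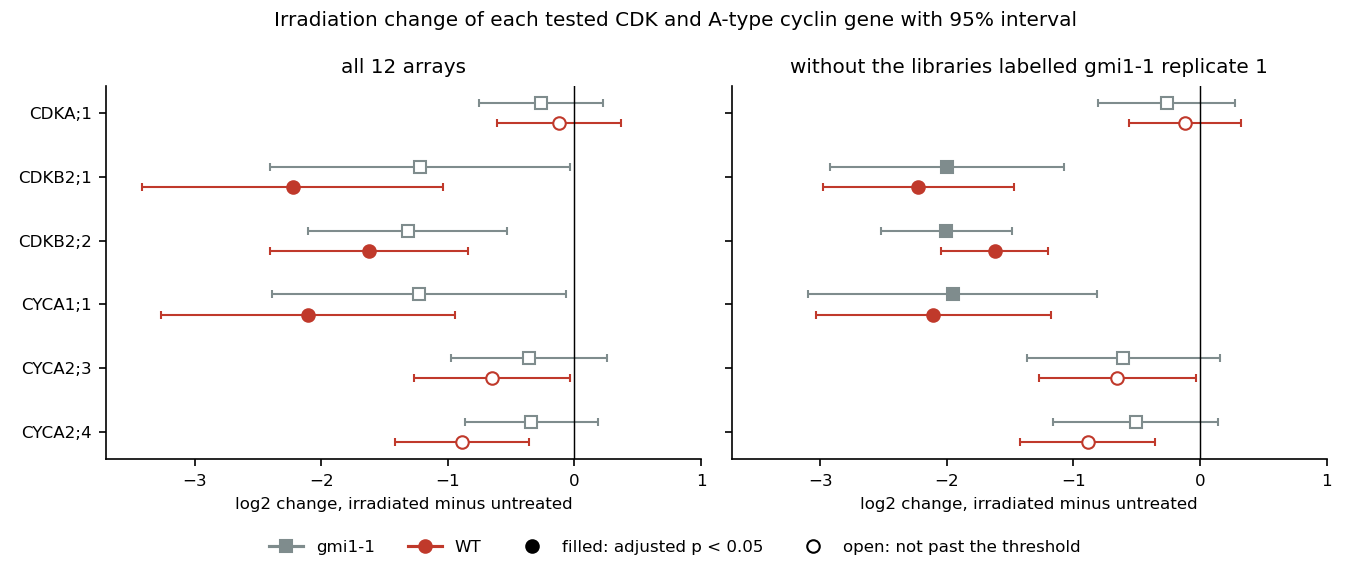
Log2 change on irradiation (horizontal axis, irradiated minus untreated, with 95% intervals) of the 6 tested genes in gmi1-1 and in WT, with all arrays (left) and without the 2 libraries labelled gmi1-1 replicate 1 (right), and with filled points where the adjusted p was under 0.05. The gmi1-1 changes of the B2-type kinases and the A1-type cyclin lie between -1.32 and -1.22 with all arrays and between -2.00 and -1.96 without these libraries, and the intervals of the A-type kinase include 0 throughout.

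The difference between the genotypes in the irradiation effect was itself tested, and no gene of the 6 passed. The test called 1 locus of 9889, 0.0101%, with all arrays. With all arrays, the gmi1-1 change minus the WT change was 1.01 for CDKB2;1 (95% interval -0.67 to 2.68), 0.31 for CDKB2;2 (-0.80 to 1.42) and 0.88 for the A1-type cyclin (-0.76 to 2.52), each at adjusted p = 1 by limma. In the same order, the differences without the 2 libraries were 0.23 (-0.97 to 1.42), -0.38 (-1.05 to 0.29) and 0.15 (-1.32 to 1.62), each at adjusted p = 0.999. These intervals still include differences of 1 log2 unit for all 3 genes, so a like response of the genotypes was not shown. For the A-type kinase the interval was -0.84 to 0.54 with all arrays and -0.85 to 0.56 without the 2 libraries. For the 2 tested A2-type cyclins it was -0.58 to 1.16 (CYCA2;3) and -0.20 to 1.29 (CYCA2;4) with all arrays, and -0.93 to 1.03 and -0.47 to 1.22 without the libraries.

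Between untreated seedlings, no gene passed the test, which called 0.0101% of all loci. With all arrays the mean was lower in gmi1-1 than in WT for all 8 genes, with a median difference of -0.33, beside -0.09 over the 9889 loci tested. With the 2 libraries left out it was lower for 6 of 8, with a median of -0.18, beside -0.03 over those loci, and the A-type kinase was at 0.13. CYCA2;4 alone had an unadjusted limma p under 0.05 (0.0356), as 0.425% of loci had. Its difference was -0.57 (95% interval -1.10 to -0.05, limma adjusted p = 1), and the interval without the 2 libraries was -1.16 to 0.03. For CDKB2;1 and the A1-type cyclin every untreated gmi1-1 array lay below every untreated WT array, as on 8.13% of loci. The difference was -0.41 for the kinase (-1.59 to 0.78) and -0.71 for the cyclin (-1.87 to 0.45), and without the 2 libraries it was -0.38 for the kinase and -0.58 for the cyclin. CDKB2;2 was at 0.15 without the 2 libraries, where it was at -0.35 with all arrays (adjusted p = 0.999 without them for each).

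Between irradiated seedlings, no gene passed the test either with all arrays, where it again called 0.0101% of all loci, or without the 2 libraries. With all arrays, none of the 6 had an unadjusted p under 0.05, as 7.73% of loci had. The gmi1-1 minus WT difference was 0.60 for CDKB2;1 (95% interval -0.59 to 1.79), -0.04 for CDKB2;2 (-0.83 to 0.74) and 0.17 for the A1-type cyclin (-0.99 to 1.33), with adjusted p = 0.753, 0.976 and 0.935 by limma. These differences were -0.15, -0.23 and -0.43 without the 2 libraries, so the sign for the first kinase and the cyclin turned on the library labelled gmi1-1 irradiated replicate 1. Leaving out gmi1-1 irradiated replicate 2 as well, with only replicate 3 left, gave the A1-type cyclin -1.37 (adjusted p = 0.0447) in a fit that called 1081 of the 9889 loci, whose median was -0.50, and leaving out replicate 3 in its place gave 0.51 (adjusted p = 0.871).

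Ordered by their group means over all arrays from low to high, the 3 genes that fell had both irradiated groups below both untreated groups. For CDKB2;1 the order was 4.66 in irradiated WT, 5.26 in irradiated gmi1-1, 6.48 in untreated gmi1-1 and 6.88 in untreated WT seedlings, and of neighbouring groups only the 2 untreated ones did not overlap. The A1-type cyclin had the same order of groups, with 4.78 in irradiated WT, 4.95 in irradiated gmi1-1, 6.17 in untreated gmi1-1 and 6.89 in untreated WT seedlings, and again only the 2 untreated groups did not overlap. CDKB2;2 was at 5.19 in irradiated gmi1-1, 5.24 in irradiated WT, 6.51 in untreated gmi1-1 and 6.86 in untreated WT seedlings, and of neighbours only irradiated WT and untreated gmi1-1 did not overlap. Over all arrays CDKA;1, CYCA2;1, CYCA2;3 and CYCA2;4 also had both irradiated means below both untreated means, and CYCA2;2 did not. For all of these, neighbouring groups overlapped. The order of the 3 genes that fell changed without the 2 libraries. Irradiated gmi1-1 was then at 4.50 for the first kinase and 4.35 for the A1-type cyclin, below irradiated WT at 4.66 and 4.78, and untreated gmi1-1 was at 7.01 for the second kinase, above untreated WT at 6.86.

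The 2 B2-type kinases parted in the doubted libraries. CDKB2;1 minus CDKB2;2 was 1.20, -0.20 and -0.81 in irradiated gmi1-1 and 0.92, -0.46 and -0.56 in untreated gmi1-1 seedlings. It was -0.02, -0.41 and -1.31 in irradiated WT and 0.32, 0.03 and -0.28 in untreated WT seedlings. The libraries labelled gmi1-1 replicate 1 thus had the 2 highest differences of the 12 arrays, and replicate 1 was the highest of every group. Where 0 is the mean of untreated and 1 the mean of irradiated gmi1-1 replicates 2 and 3, the libraries labelled replicate 1 irradiated and untreated stood at 0.726 and 0.756 for CDKB2;2, and at -0.128 and 0.0425 for CDKB2;1. The A1-type cyclin stood at 0.0844 and 0.202 on that scale, and the damage-induced BRCA1 at 0.920 and 0.918. Both libraries thus lay nearer the irradiated mean for BRCA1 and one of the kinases, and nearer the untreated mean for the other kinase and the cyclin. On the same scale made from WT replicates 2 and 3, irradiated and untreated WT replicate 1 stood at 0.643 and -0.0837 for CDKB2;1, at 0.980 and 0.14 for CDKB2;2, at 0.734 and 0.0675 for the cyclin and at 0.951 and -0.0215 for BRCA1. The change of CDKB2;1 minus that of CDKB2;2 was -0.60 in WT (exact permutation test over arrays, two-sided p = 0.2, n = 3 each). With 3 arrays against 3 the smallest p possible is 0.1, so this test cannot settle whether the falls differ, and it did not use the replicate number. In WT the difference between the kinases was lower on each irradiated array than on the untreated array of the same number. The numbers were not taken to pair the arrays, and this is given as a description.

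**Figure D3:**
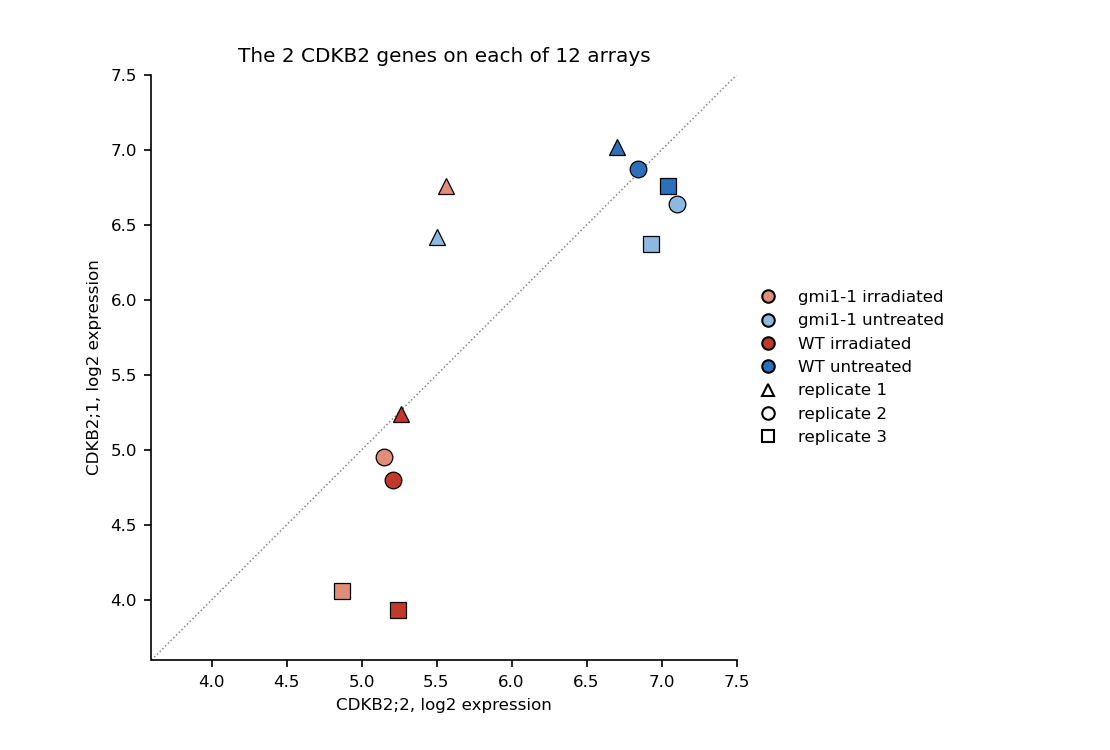
CDKB2;1 (vertical axis, log2) against CDKB2;2 (horizontal axis, log2) on the 12 arrays, coloured by group, with symbol shape for the replicate number and a dotted line of equal values. The libraries labelled gmi1-1 replicate 1 (triangles) lie above the line by 1.20 (irradiated) and 0.92 (untreated), and the other 10 arrays lie between 1.31 below and 0.32 above it.

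Of 9 listed B-type cyclins, the mitotic partners of CDKs, 7 were in the table and 4 were tested. In WT 3 fell and 1 rose (limma, adjusted p under 0.05), where 4.54% of all loci were called in either direction. Nothing is read from that count, since of the 3 that fell CYCB1;3 and CYCB2;4, at 1.77 to 3.20 in irradiated WT seedlings, reached the filter on untreated arrays alone, and the third on these and the library labelled gmi1-1 irradiated replicate 1. The mitotic cyclin CYCB1;4 had 3.34, 3.11 and 1.89 in irradiated WT seedlings, against 5.89, 5.99 and 5.83 in untreated WT seedlings. CYCB1;1, a partner of B1-type kinases in homologous recombination repair, went the other way, with 10.32, 10.80 and 10.54 in irradiated WT seedlings against 5.16, 5.42 and 5.47 in untreated WT seedlings. The median over the 7 B-type cyclins in the table was -1.95, beside -0.11 over the 9889 loci tested. In gmi1-1 none of the 4 was called with all arrays. Without the 2 doubted libraries 3 fell and 1 rose, where 7.58% of all loci were called in either direction. Nothing is read from this count either, for the same reason. With gmi1-1 irradiated replicate 3 left out as well, 1 fell and the same one still rose, while CYCB1;3 and CYCB1;4 missed the threshold (adjusted p = 0.208 and 0.0831 by limma).

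The D-type cyclins, which bind the A-type kinase in G1, did not pass in WT. Of 10 listed, 8 were in the table and 5 were tested, and the median of the 8 was -0.42. Of the other A-type cyclins, 3 of 5 were in the table and the S-phase cyclin CYCA3;1, the only one tested, was at -0.59 (adjusted p = 0.364). Of 11 other CDKs and CKS subunits, 8 were in the table and 7 tested. In WT 1 rose and none fell, where 4.54% of all loci were called in either direction. That one was CDKD;2, a kinase that activates other CDKs, with 7.12, 8.33 and 7.87 in irradiated WT seedlings against 5.35, 5.70 and 5.43 in untreated WT seedlings. It rose by 2.28 (SE 0.37, adjusted p = 0.00877). The median of the 8 genes of that list was 0.16, and the docking subunits CKS1 and CKS2 were at -0.21 and -0.79 (adjusted p = 0.611 and 0.185).

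Of the genes that restrain CDK activity, some were called higher and some lower, and nothing is read from their count. The list of CDK inhibitors with the inhibitory kinase WEE1 had 16 genes, of which 13 were in the table and 11 tested. In WT 3 rose and 1 fell with all arrays, with a median of 0.14 over the 13, where 4.54% of all loci were called in either direction. The count was 4 higher and 2 lower without the 2 doubted libraries, where 7.34% were called. SMR5 and SMR4, inhibitors of the SIAMESE-related family that respond to DNA damage, rose by 8.64 and 6.72 (adjusted p = 0.00877 each). Untreated WT seedlings were at 2.26 to 2.38 for SMR5 and 2.74 to 3.27 for SMR4, below the filter and in the range that GCRMA compresses, so the size of these changes rests on values near background. WEE1, the kinase that phosphorylates and inhibits CDKs when DNA is damaged, had 6.38, 7.35 and 7.08 in irradiated WT seedlings, against 3.38, 3.89 and 3.69 in untreated WT seedlings. KRP3, an inhibitor of the ICK/KRP family, fell by 0.86 (adjusted p = 0.0272 by limma), and was below the filter on all irradiated WT arrays. WEE1 was below it on all untreated WT arrays. The inhibitors and WEE1 called in WT with all arrays thus reached the filter there on their higher side alone. CCS52A1, an activator of the ubiquitin ligase that degrades mitotic cyclins, rose by 1.88 (adjusted p = 0.0102) and was 1 of 2 tested among 5 listed activators. None of the 4 tested transcription factors known to act on these genes, of 13 listed and 5 in the table, passed in WT, and the median of the 5 was 0.47.

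In gmi1-1 without the 2 doubted libraries, the activating kinase CDKD;2 rose by 1.53 (adjusted p = 0.0316 by limma). SMR5, SMR4 and WEE1 rose by 8.64, 6.46 and 2.42, and KRP7 and CYCD3;1 fell by 1.66 and 1.25. Both were lower in WT too, with means of 3.30 irradiated and 4.82 untreated for KRP7, and 7.56 and 8.07 for CYCD3;1. KRP7 reached the filter on no irradiated WT array, and in irradiated gmi1-1 only on the library labelled replicate 1, which this fit left out. Without the 2 libraries SMR5, SMR4 and WEE1 were below the filter on all untreated arrays. In this fit KRP7, SMR5, SMR4 and WEE1 thus reached the filter on their higher side alone, and their direction is given as a description. With all arrays no gene of these lists was called in gmi1-1 (limma). When gmi1-1 irradiated replicate 3, the array with the low GAPDH 5′ signal, was left out as well, the activating kinase, KRP7 and the D-type cyclin missed the threshold (adjusted p = 0.169, 0.123 and 0.148 by limma), and SMR5, SMR4 and WEE1 still rose, by 8.38, 6.38 and 2.97. CCS52A1 then rose too, by 1.78 (adjusted p = 0.0488), where it had adjusted p = 0.0636 without the 2 libraries alone. Of the 10 fits that left out 1 further array beside the 2 libraries, all 10 called SMR5, SMR4 and the B-type cyclin that rose in gmi1-1, 9 called WEE1, 6 the activating kinase, 5 KRP7 and 4 the D-type cyclin. Nothing is read from these counts for SMR5, SMR4, WEE1 and KRP7, which reached the filter on their higher side alone. The difference between genotypes was not called for any of them with all arrays.

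In WT, 1 of the 12 arrays was left out in turn. The activating kinase, CYCB2;4, SMR5, SMR4 and WEE1 were called in all 12 fits, with adjusted p up to 0.0488 (limma). These fits called 111 to 591 of all loci tested. For CYCB2;4, SMR5, SMR4 and WEE1 nothing is read from the count, since in WT they reached the filter on their higher side alone. Leaving out arrays for the listed genes was an alternative chosen after seeing the data. The B-type cyclin that rose missed the threshold without WT irradiated replicate 2 (0.0577), CYCB1;4 without WT irradiated or untreated replicate 2, CCS52A1 without WT irradiated replicate 2 or WT untreated replicate 3, and CYCB1;3 without WT irradiated replicate 2 or 3 or WT untreated replicate 3. KRP3 missed it without any WT array but untreated replicate 1 (adjusted p up to 0.13).

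**Figure D4:**
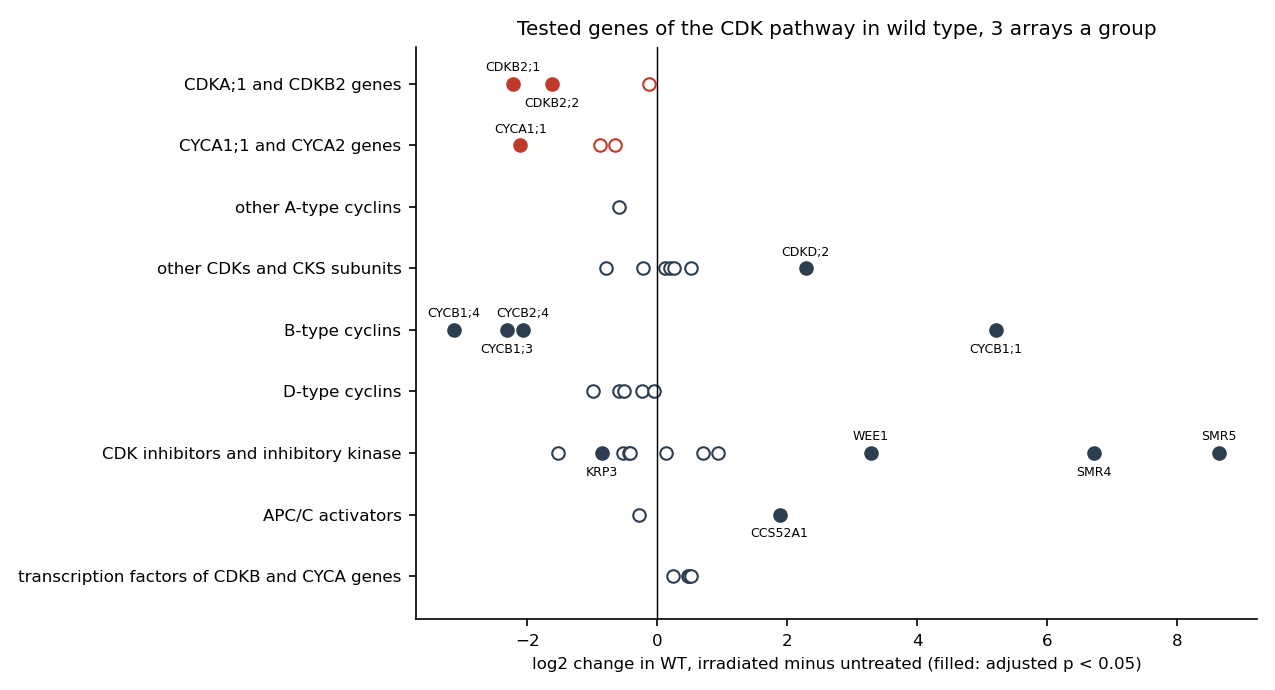
Log2 change on irradiation in WT (horizontal axis, irradiated minus untreated, all arrays) of each tested gene, 1 row per list, with filled points for genes that passed the test. The B2-type kinases and the A1-type cyclin lie between -2.23 and -1.62, beside the 3 B-type cyclins that fell, at -3.12 to -2.07, and CYCB1;1, SMR4, SMR5, WEE1, CDKD;2 and CCS52A1 lie above 1.

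The patterns most like those of the described genes were sought among 4708 tested loci with a gene name, by Pearson r over the 12 arrays, which share the 4 groups and the doubted libraries. The mean of CDKB2;1 and CDKB2;2 was most like CYCB1;4 (r = 0.984), the early nodulin-like gene ENODL13 (0.981), ROPGEF6, an exchange factor for ROP GTPases (0.979), SOL1 (0.978) and APT2, an adenine phosphoribosyltransferase (0.978). Without the 2 doubted libraries these 5 ranked between 2 and 7. The mean of CYCA1;1, CYCA2;3 and CYCA2;4 was most like the sugar transporter gene SWEET17 (0.960), the peroxidase gene PRXR1 (0.959), RIP4 (0.951), BCAT4, an aminotransferase (0.951), and AGP1, an arabinogalactan protein (0.948), which ranked between 1 and 9 without the 2 libraries. The genes most like the A-type kinase, led by CBSX3 (0.966) and the cell wall invertase ATBFRUCT1 (0.950), were less settled and ranked between 14 and 73 without the 2 libraries.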

How the data were processed

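Per the submitters' processing notes the authors summarised and normalized the arrays with GCRMA, and the deposited values are log2 expression per locus. The log2 scale was read from the values, with version, array design, probe sets and build not given in the sources used here, so no coordinates are given. GCRMA compresses values near background. The table held 16947 loci and 2 control probe sets, and 16851 loci matched RefSeq (TAIR10.1) by locus tag, used for names only. Loci with a log2 value of 4 or more on at least 3 of 12 arrays were tested (9889). With limma 3.58.1 (lmFit, eBayes) in R 4.3.3, 1 mean per group was estimated from the 12 arrays together, without a block. P-values are two-sided, adjusted by the Benjamini-Hochberg method over the 9889 loci of a contrast, and called under 0.05. Intervals are 95% and unadjusted. Precision is limited by the number of arrays. The fit was run on simulated data with independent noise between arrays, as a check of the mean estimate and not of the calls made here. Groups and replicate numbers come from the titles. The genes, lists and tests were chosen with earlier results of these data known. All 10 genes are named, and of other lists up to 4 called genes with the smallest p. CYCA1;2, CYCA3;1, CKS1 and CKS2 were added after their values were seen. For each of 3 profiles the 5 most like loci were taken. Alternatives were a replicate block, filters, normalizations, spread estimates and left-out arrays. No sequences were used.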

Additional observations from a re-analysis of the deposited data

How the results depend on the processing

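In WT, 3 genes were called with all arrays. The count was 3 with the replicate number as a block (585 loci called over the whole table, against 449 without it), 5 with array weights, 4 with median centring, 2 with no filter and 2 where the minimum log2 value was 6, which leaves the A2-type cyclins out. Over the whole table array weights called 1407 loci, and leaving out 1 array at a time gave 111 to 591. With 1 of the 12 arrays left out, 0 to 4 of the genes were called in WT: 0 without WT irradiated replicate 2 or 3 or WT untreated replicate 2 or 3. Without the 2 libraries labelled gmi1-1 replicate 1 it was 3, and 2 to 4 with 1 further array left out, an alternative chosen after seeing the data. The A1-type cyclin missed the threshold in WT with no filter (adjusted p = 0.0517), the minimum of 6 (0.0513) and quantile normalization (0.051).

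In gmi1-1, 0 genes were called with all arrays and with the replicate block (0 of 9889 loci each), 1 with array weights (417 loci), 3 without the 2 libraries (750), 3 with a replicate block without them (1216), 1 without these and gmi1-1 irradiated replicate 3 (343), and 2 without all 4 arrays numbered 1 (1027). Leaving out 1 array gave 0 to 1, and 1 further array beside the 2 libraries gave 1 to 3 (213 to 1997 loci). The difference of the irradiation effect and gmi1-1 against WT untreated gave 0 in all 35 settings. For gmi1-1 against WT irradiated the count was 0, and 0 to 1 with 1 further array left out beside the 2 libraries, where the A1-type cyclin, at 0.17 with all arrays, turned to -1.37 (adjusted p = 0.0447) with 1 irradiated gmi1-1 array left. That fit called 1081 loci, against 1 with all arrays, and the median over loci was -0.50. Over all fits that left out an array its difference ran from -1.37 to 0.935. The cause was not tested. Same-numbered arrays of different groups deviated together (r above 0.1) in 12 of 18 pairs and the lowest r was -0.0238, so the numbers, which had to do so in every pair, were not taken to pair the samples. As a hint from the data, the median r of same-numbered arrays was 0.283, above that of differently numbered ones, and 11 of 12 arrays were closest to their own number. The replicate block changed no call of these genes with all arrays.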
